A study of Rattus norvegicus with 6 samples.

Results

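Among genes that mark the stem cells of the intestinal crypt or answer to Wnt signalling, Olfm4 was 7.31-fold higher and Axin2 was 2.63-fold lower in the jejunum of rats labelled S3d than in that of rats labelled control, as the scanner files name the arrays. The study gives its array results in the opposite direction, that of its normalized table, under which Olfm4 was lower and Axin2 higher in S3d. It reports that 10 other genes, measured by real-time PCR, changed in the direction of its array results. Which labels are right was not tested here. The set was fixed as 10 genes, namely Lgr5, Olfm4, Ascl2, Smoc2, Axin2, Bmi1, Myc, Ephb2, Ephb3 and Cd44. An array probe belonged to the set if its RefSeq accession is one of a listed gene. Probes of 8 of the 10 genes were found, 11 of 41012 probes in all, and Bmi1 and Ephb3 were not matched. Both groups were male Sprague-Dawley rats 6 weeks old that weighed 200 ± 20 g. On each of 3 days the S3d rats spent 2 h at 35°C under vibration of 0.1 g, whereas the control rats stayed at 25°C without it. Each group had 3 arrays, and each array carried RNA pooled from 3 rats. The labels give 10 rats per group and the methods give 6, in which case pools of a group would share animals, so the p-values measure the spread between pools.

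The scanner files and the authors' normalized table name the groups in opposite ways, and no sample was reassigned. Each of the 6 columns of the table followed, to a Spearman rho of 1.00, the scanner file with the same replicate number in the other group, and its rho with the scanner file of its own name lay between 0.942 and 0.953. Below, "S3d arrays" are those whose scanner files carry that label, and every difference is S3d minus control. Under the labels of the table the direction of 10 of the 11 member probes turns, all but the second Smoc2 probe, which neither source called, and its values are given beside the main ones. A single slide carried the control arrays and another the S3d arrays, with 450 days between their scans, and slide and group cannot be told apart. The 75th percentile of the signal lay between 414.8 and 430.0 on the control arrays and between 1457.7 and 1558.3 on the S3d arrays. The log2 signal was therefore set relative to the 75th percentile of its own array, and without this scaling the median change of all 31424 probes tested was 1.93 on the log2 scale, against 0.09 with it.

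The crypts of the small intestine hold the dividing cells that renew its lining. At their base, Wnt proteins from neighbouring cells bind Frizzled and LRP receptors, beta-catenin escapes destruction, enters the nucleus and joins TCF/LEF factors on DNA, and genes such as Axin2, Ascl2, Lgr5, Myc, Ephb2 and Cd44 are transcribed. Lgr5, Olfm4, Ascl2 and Smoc2 mark the columnar stem cells between the Paneth cells. In whole jejunum, fewer cells of a type and less RNA per cell cannot be told apart.

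Axin2 and Olfm4 moved in opposite directions, and the 250 bases before the RefSeq start of each are shown for that reason, with those of Cd44 as the only other member holding the motif searched. Capitals mark the letters CTTTGA, a core of TCF/LEF sites, or TCAAAG, the same core on the other strand. The promoters are from RefSeq on GRCr8, at chr10:94398535-94398784 on the plus strand for Axin2, chr3:109699425-109699674 on the minus strand for Cd44 and chr15:61815981-61816230 on the plus strand for Olfm4, each read in the direction of its gene. The starts of all 3 genes used there lie inside the annotated span of the gene, since other transcripts begin further upstream.
Axin2: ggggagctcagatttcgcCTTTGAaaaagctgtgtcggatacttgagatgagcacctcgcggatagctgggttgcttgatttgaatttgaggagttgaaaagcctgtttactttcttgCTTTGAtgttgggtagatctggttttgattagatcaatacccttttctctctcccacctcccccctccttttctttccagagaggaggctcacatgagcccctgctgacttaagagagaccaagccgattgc
Cd44: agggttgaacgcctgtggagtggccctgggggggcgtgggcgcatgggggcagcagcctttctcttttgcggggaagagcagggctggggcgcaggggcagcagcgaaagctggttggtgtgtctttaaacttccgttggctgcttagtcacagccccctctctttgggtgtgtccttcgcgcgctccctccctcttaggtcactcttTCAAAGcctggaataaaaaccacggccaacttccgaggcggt
Olfm4: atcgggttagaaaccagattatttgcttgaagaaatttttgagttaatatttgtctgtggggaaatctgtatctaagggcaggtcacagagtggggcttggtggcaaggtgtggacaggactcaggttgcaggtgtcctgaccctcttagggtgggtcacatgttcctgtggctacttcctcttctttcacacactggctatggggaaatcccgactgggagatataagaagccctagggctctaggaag
Axin2 held the core at 232 and 132 bases before its start, both on the strand of the gene. Cd44 held it 42 bases before its start, on the other strand. The Olfm4 window held none, nor did those of Ascl2, Ephb2, Ephb3 and Bmi1, while Lgr5, Smoc2 and Myc had no entry. Of 33469 promoter windows of this length, 13.9% held the core on either strand.

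All 11 probes were well above background on all 6 arrays and all were tested with limma across the whole array. At an adjusted p under 0.05, 8 of the 11 probes were called, 2 higher and 6 lower on the S3d arrays. Of all probes tested, 73.9% were called, 39.5% higher and 34.4% lower. The share of members called, both directions together, was near that of the array, with a smaller share higher and a larger share lower. This difference in shares was not tested. The probes tested include 3621 well above background on every array of S3d but not of control, and 537 the other way round. Of the 27266 well above background on all 6 arrays, as all members were, 9599 were called higher and 10520 lower, with a median of -0.03. That narrower fit called 9 member probes. In the main fit, with the brightest probe standing for a gene, 7 of 8 genes were called, 2 higher and 5 lower. Of these, 5 also reached 1.5-fold, as did 52.5% of all probes. The median change was -0.43 over the 8 genes and 0.09 over all probes. The groups did not overlap for 9 of the 11 probes, nor for 78.9% of all probes tested. Without scaling all 11 probes were called higher, as were 94.2% of all probes, and 9 of the 11 lay below the median of all probes there as well, since scaling shifts every probe of an array by the same amount. In the normalized table, by its own labels, 8 probes were called higher and 1 lower, against 35.2% and 34.7% of all probes.

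**Figure D1:**
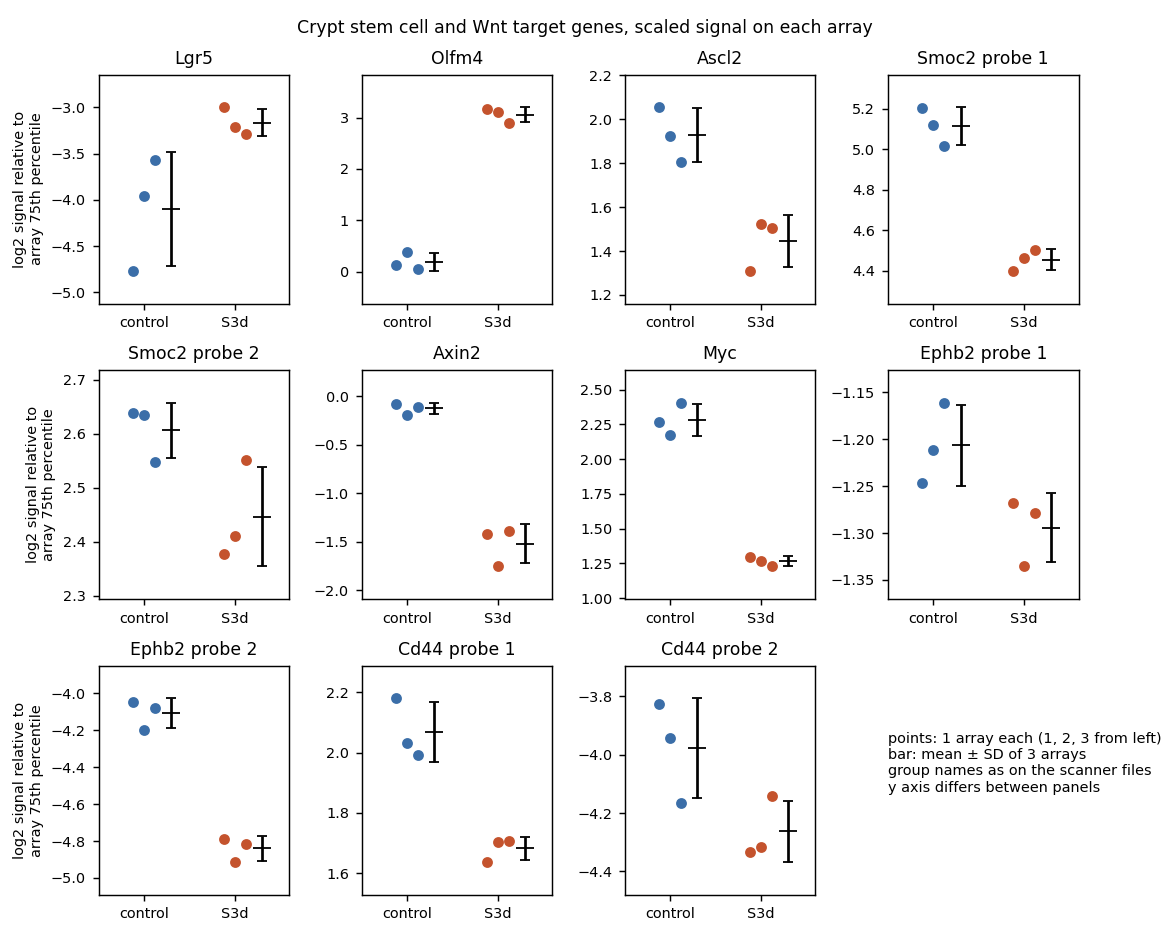
Each panel shows 1 probe, with the log2 signal relative to the 75th percentile of the array on the y axis, 1 point per array, and the mean ± SD of 3 arrays. Olfm4 and Lgr5 lie higher on the S3d arrays and the other probes lower, with overlap between the groups for the second probes of Smoc2 and Cd44 only; without scaling all lie higher, and under the labels of the normalized table the direction turns for 10 of the 11 probes.

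Olfm4, a secreted glycoprotein of the olfactomedin family found in crypt base cells, showed the largest change among the members. Its log2 signal relative to the 75th percentile was 0.13, 0.38 and 0.04 on the control arrays and 3.16, 3.11 and 2.89 on the S3d arrays. All S3d arrays were thus far above all control arrays. The log2 change was 2.87 (SE 0.12, 95% interval 2.57 to 3.16, adjusted p = 1.55e-05), above 97.8% of all probes tested. In the normalized table, whose labels run the other way, the change was -3.01 (adjusted p = 1.92e-05). Olfm4 was 1 of 2 members still called when the background was corrected by normexp (2.82, adjusted p = 0.016), a model under which 5.53% of all probes were called. Leaving out each array in turn gave changes between 2.80 and 2.97, all called.

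Lgr5, the R-spondin receptor that defines the columnar stem cells, was the other gene called higher, at a dim probe. Its scaled log2 signal was -4.77, -3.95 and -3.56 on the control arrays and -3.00, -3.21 and -3.28 on the S3d arrays. The groups did not overlap, but the control arrays were further apart, with an SD of 0.61 against 0.15 in S3d. The change was 0.93 (SE 0.30, 95% interval 0.18 to 1.68, adjusted p = 0.032). The call was lost under quantile normalization (0.64, adjusted p = 0.076), under centring on array medians (0.75, adjusted p = 0.058), and without control 2 (adjusted p = 0.059), S3d 1 (0.084), S3d 2 (0.070) or S3d 3 (0.061). The sign turned under normexp (-0.79, adjusted p = 0.35), and the normalized table gave -0.62 by its own labels (adjusted p = 0.086). Without control 1 the change was 0.59, still called (adjusted p = 0.020). The changes of Olfm4 and Lgr5 differed by 1.94, with SDs of 0.65 in control and 0.09 in S3d, and by 2.38 under quantile normalization, 3.62 under normexp and -2.39 in the table by its own labels.

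Ascl2, a basic helix-loop-helix transcription factor that maintains the stem cell state, was lower on the S3d arrays. Its scaled log2 signal was 2.05, 1.92 and 1.81 in control and 1.31, 1.52 and 1.5 in S3d, without overlap. The change was -0.48 (SE 0.10, adjusted p = 0.0048), a 1.40-fold difference. The normalized table gave 0.39 by its own labels (adjusted p = 0.012), and normexp gave -0.06 (adjusted p = 0.92).

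Smoc2, a secreted calcium-binding matrix protein, had 2 probes, which differed in size. The brighter probe read 5.20, 5.12 and 5.02 in control and 4.40, 4.46 and 4.50 in S3d, a change of -0.66 (SE 0.07, adjusted p = 0.00039). Its control arrays were all above its S3d arrays. Under quantile normalization this probe changed by -0.20 (adjusted p = 0.053) and under normexp by 0.031 (adjusted p = 0.96), so its call depends on how the values are made. The second probe read 2.64, 2.63 and 2.55 in control and 2.38, 2.41 and 2.55 in S3d. Its groups overlapped and its change of -0.16 was not called (adjusted p = 0.094), with a sign that turned under quantile normalization (0.020) and normexp (0.28). Centred on array medians, the second probe was called (-0.34, adjusted p = 0.0084). Of the 4 stem cell markers, then, Olfm4 and Lgr5 were called higher and Ascl2 and the brighter Smoc2 probe lower, while without scaling all were higher, under normexp only Olfm4 was called, and by the labels of the normalized table Olfm4 was lower and Ascl2 and that Smoc2 probe higher.

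**Figure D2:**
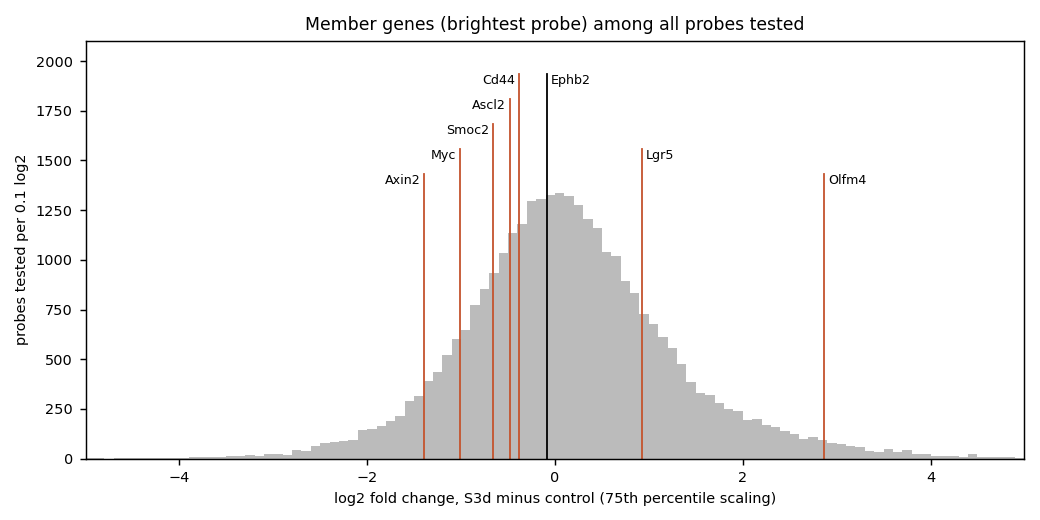
The grey histogram counts the 31424 probes tested by log2 change, S3d minus control, in steps of 0.1, with 46 probes beyond the axis. Vertical lines mark the brightest probe of each member gene, in red where called: Olfm4 at 2.87 lies in the upper tail, Axin2 at -1.39 above 6.80% of probes, and Ephb2 at -0.09 was not called; without scaling every value moves up together, and by the labels of the normalized table the axis runs the other way.

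Axin2, a scaffold of the complex that destroys beta-catenin and itself a Wnt target that feeds back on the pathway, was the member with the largest decrease. Its scaled log2 signal was -0.08, -0.19 and -0.11 in control and -1.42, -1.75 and -1.39 in S3d. Every S3d array was at least 1 log2 unit below every control array. The change was -1.39 (SE 0.11, 95% interval -1.67 to -1.12, adjusted p = 0.00011). It was also called under normexp (-1.38, adjusted p = 0.029) and without each array in turn (-1.46 to -1.28). The normalized table gave 1.45 by its own labels (adjusted p = 0.00014), and the unscaled signals gave 0.45, below the median of all probes there. The changes of Olfm4 and Axin2 differed by 4.26 on the log2 scale, with SDs of 0.22 in control and 0.29 in S3d, and by 4.47 under quantile normalization, 4.20 under normexp and -4.46 in the table by its own labels.

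Myc, the transcription factor that drives growth and cell division downstream of Wnt, was measured at 10 spots of 1 probe on every array, of which 8 or 9 were used. Their mean was 2.26, 2.18 and 2.40 on the control arrays and 1.30, 1.27 and 1.23 on the S3d arrays. The SD between spots of an array lay between 0.03 and 0.08, smaller than the gap between the groups on every array. The change was -1.02 (SE 0.08, 95% interval -1.21 to -0.82, adjusted p = 8.81e-05), a 2.02-fold difference. The normalized table gave 0.92 by its own labels (adjusted p = 0.00017) and the unscaled signals gave 0.83, while normexp gave -0.62 (adjusted p = 0.17). Repeated spots show the error of the array surface and of the scan, not that between rats.

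**Figure D3:**
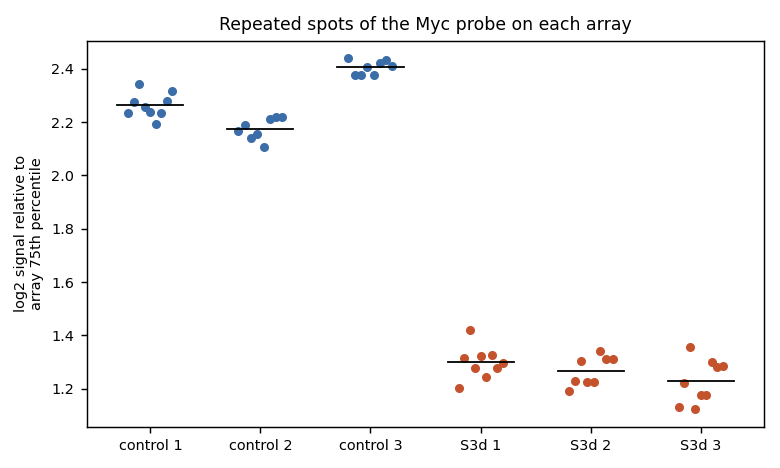
Each point is 1 spot of the Myc probe used on an array, as log2 signal relative to the 75th percentile of that array, with a line at the mean. The lowest control spot, at 2.10, lies above the highest S3d spot, at 1.42, on this scale, whereas without scaling the S3d arrays are higher, and the normalized table names the groups the other way.

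Ephb2, a receptor tyrosine kinase that answers ephrin-B ligands and keeps dividing cells in the crypt, had 2 probes of which 1 was called. The brighter probe read -1.25, -1.21 and -1.16 in control and -1.27, -1.34 and -1.28 in S3d. Its groups did not overlap, but they lay close, and its change of -0.09 was not called (95% interval -0.24 to 0.06, adjusted p = 0.23). Centred on array medians, this probe was called (-0.26, adjusted p = 0.0088). The dimmer probe read -4.05, -4.20 and -4.08 in control and -4.79, -4.91 and -4.82 in S3d, a change of -0.73 (SE 0.07, adjusted p = 0.00023). The 2 changes differed by 0.65. The normalized table gave 0.16 (adjusted p = 0.047) and 1.21 (adjusted p = 7.27e-05) by its own labels, and under normexp neither probe was called.

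Cd44, an adhesion receptor for hyaluronan on crypt cells and on leukocytes, was lower at its brighter probe. This probe read 2.18, 2.03 and 1.99 in control and 1.64, 1.70 and 1.71 in S3d, without overlap. Its change was -0.39 (SE 0.07, adjusted p = 0.0039), with 0.28 in the normalized table by its own labels and -0.05 under normexp (adjusted p = 0.91). The dimmer probe read -3.83, -3.94 and -4.17 in control and -4.33, -4.31 and -4.14 in S3d. These groups overlapped, and the change of -0.28 was not called (adjusted p = 0.055), though it was under quantile normalization (-0.66, adjusted p = 0.0036). When the probes of a gene were averaged, Smoc2 (-0.41), Ephb2 (-0.41) and Cd44 (-0.34) were all called lower.

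**Figure D4:**
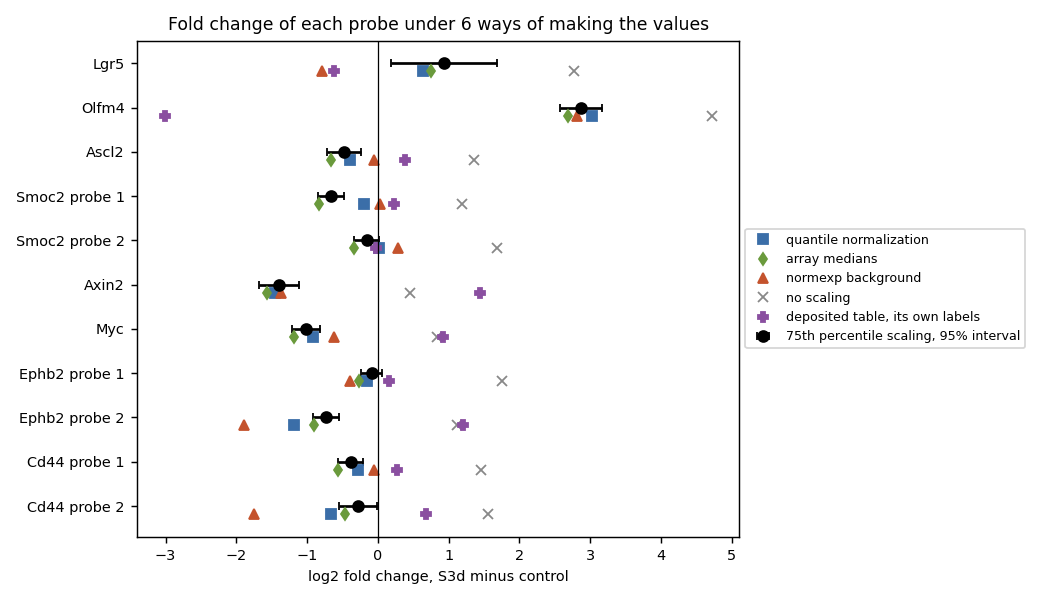
For each probe, the log2 change S3d minus control is plotted for 75th percentile scaling with its 95% interval (black), quantile normalization, array medians, normexp background correction, no scaling, and the normalized table by its own labels. Olfm4 stays between 2.69 and 3.02 under the 4 scaled settings, Axin2 between -1.57 and -1.38, Lgr5 and both Smoc2 probes change sign under normexp, all probes are above 0 without scaling, and the table turns 10 of 11 signs.

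The pathways around the members were described through 11 lists of 155 genes, none of them a member. Of these, 121 were matched to the array and 104 tested, with 33 called higher and 37 lower on the S3d arrays, 31.7% and 35.6% of those tested, against 39.5% and 34.4% of all probes. The 33 include genes tested through the S3d arrays alone. With signal well above background required on all 6 arrays, 65 list genes were called, against 70 in the main fit. The normalized table called 66. Under normexp 6 of the 104 were called. Without scaling the median of all probes moved up as given above, and the sign of every gene named from these lists with a value turns under the labels of the normalized table. Counts and medians of the lists do not turn one for one.

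Of the Wnt ligands and R-spondins, 9 genes were tested, 3 called higher and 1 lower, with a median of 0.09. Among the 3, Wnt9b entered the test through the S3d arrays alone, so that its call is no support for a difference. Wnt3, a ligand made by Paneth cells, changed by 0.89 (adjusted p = 0.0033) and the non-canonical ligand Wnt11 changed by -2.41 (adjusted p = 0.0052). Wnt11 was among the genes called under normexp, and Wnt3 turned sign there and was not called under quantile normalization (0.39, adjusted p = 0.12). Of the receptors and surface regulators, 9 were tested, 3 called higher and 2 lower. Their median was 0.29, or 0.12 under quantile normalization and -0.10 in the normalized table. The co-receptor Lrp5 read 0.14, 0.07 and 0.01 in control and -2.56, -2.73 and -2.51 in S3d (change -2.68, adjusted p = 1.09e-05). These arrays were far apart, and the call held under normexp. Ryk, a receptor for Wnt ligands, changed by 0.69.

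The list of beta-catenin and its cytoplasmic regulators had the most calls in 1 direction. All 12 genes were tested, 9 were called lower and 1, Btrc, higher, and the median was -0.64, or -0.51 under quantile normalization. Gsk3a, a kinase of the destruction complex, showed the largest decrease (-1.88, adjusted p = 5.3e-05) and was called under normexp. Btrc, the F-box protein that hands beta-catenin to degradation, was not well above background on any control array. It was at least 2.42-fold higher in S3d, a bound set against the lowest signal well above background. It entered the test through the S3d arrays alone, so that its call is no support for a difference, and its sign turned under normexp. Of the TCF/LEF factors and nuclear partners, 9 were tested, 6 called lower and 1 higher, with a median of -0.26. The co-activator Bcl9 changed by -1.32 and the co-repressor Ctbp2 by 0.46. None of this list was called under normexp.

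Of the secreted Wnt antagonists, 5 were tested, 3 called higher, Notum among them, and 1 lower. Notum, a secreted lipase that inactivates Wnt proteins, was not well above background on any control array and was at least 2.31-fold higher in S3d. It too entered the test through the S3d arrays alone, so that its call is no support for a difference, and it had the opposite sign under normexp. Frzb, a secreted decoy for Wnt proteins, changed by 0.37 and Sfrp5, another such decoy, by -0.53, and the call of Sfrp5 was lost without any 1 of 5 arrays, S3d 1 excepted. Of 7 other crypt stem cell and Wnt target genes tested, 3 were called higher and 2 lower. Among the 3, Sp5 entered the test through the S3d arrays alone, so that its call is no support for a difference. The chloride co-transporter Slc12a2 changed by 1.73 and was called under normexp, and the metalloproteinase Mmp7, made by Paneth cells, changed by -1.34. For Mmp7 the normalized table gave 1.15 by its own labels, the direction in which the study lists this gene.

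Of the other Eph receptors and B-class ephrins, 7 were tested, 4 called higher and 2 lower, with a median of 0.46. Efnb1, a ligand of EphB receptors, read -2.05, -2.04 and -1.87 in control and 0.10, 0.29 and 0.15 in S3d. Its arrays did not overlap, and its change of 2.17 stood beside -0.09 and -0.73 at the probes of Ephb2. The receptor Epha2 changed by -1.02.

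The Myc network had 9 genes tested, 3 called higher and 4 lower, with a median of 0.03, or -0.36 under quantile normalization and 0.39 in the normalized table. Mxd1, which competes with Myc for the partner Max, read 3.27, 3.25 and 3.30 in control and 0.40, 0.23 and 0.17 in S3d, a change of -3.01. All control arrays stood above all S3d arrays, and the call held under normexp. Mlx, another dimer partner of the network, changed by 0.46. For Bmi1, which was not matched, 10 genes of a Polycomb list were tested, 6 called higher and 1 lower, with a median of 0.73. Besides partners of Bmi1, this list holds its Pcgf relatives. Phc3 changed by 1.51 and Phc2 by -0.87, and none of this list was called under normexp.

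Of 12 Notch pathway genes tested, 1 was called higher and 5 lower, with a median of 0.02, or -0.24 under quantile normalization and 0.26 in the normalized table. Notch3, a receptor of vascular smooth muscle, changed by -1.50 and Notch4 by 0.43. Of 15 BMP pathway genes tested, 5 were called higher and 4 lower, with a median of 0.13. The BMP target Id2 changed by -1.76 and the BMP antagonist Grem1 by 0.62. Neither list had a gene called under normexp.

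**Figure D5:**
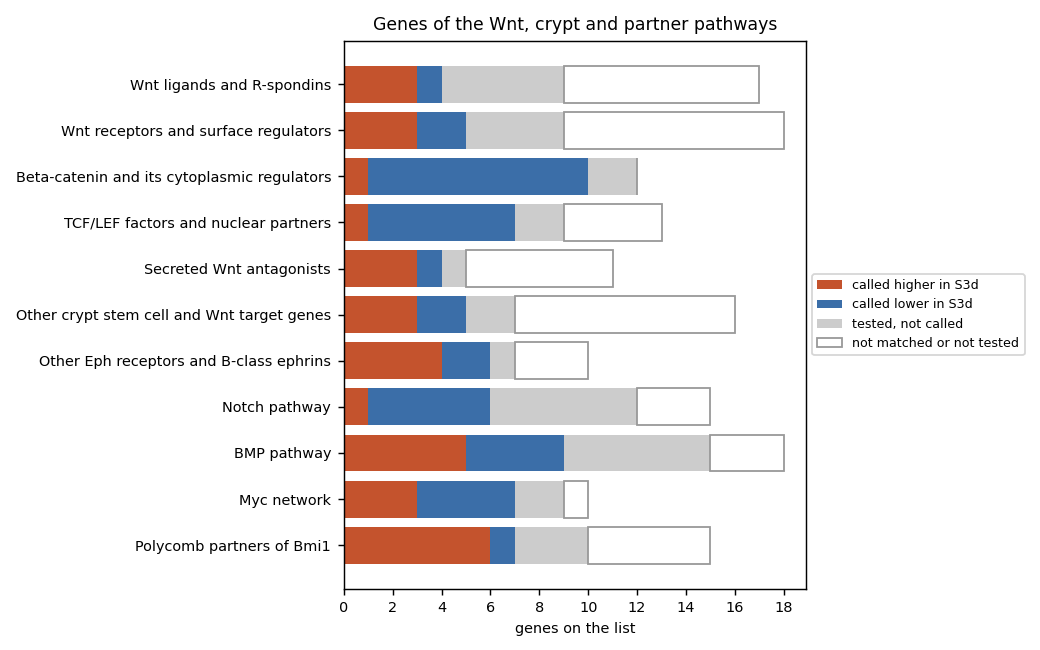
Bars count the genes of each of 11 lists, called higher on the S3d arrays (red), called lower (blue), tested and not called (grey), or not matched or not tested (white). Beta-catenin and its cytoplasmic regulators show 9 lower and 1 higher. The Polycomb list, which also holds Pcgf relatives of Bmi1, shows 6 higher and 1 lower. Some genes called higher were tested through the S3d arrays alone. Without scaling nearly all values move up. By the labels of the normalized table the first of these lists has 8 higher and 1 lower and the second 1 higher and 6 lower.

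Markers of the cell types in whole jejunum were described on the same scale, and their part in these results was not tested. Of 12 jejunal enterocyte markers tested, 2 were called higher and 8 lower, and their summed signal, in units of the 75th percentile of each array, lay between 3574 and 3997 in control and between 1617 and 1664 in S3d. The median of that list was -1.03 with 75th percentile scaling and 0.08 with quantile normalization. In the normalized table, by its own labels, 3 of these markers were called higher and 5 lower. Of 4 Paneth markers tested, 3 were called lower and none higher, with a summed signal of 889.5 to 968.4 in control and 222.4 to 510.0 in S3d, while the median of the list was -1.42 with 75th percentile scaling and -0.62 with quantile normalization, and the normalized table had 1 higher and 1 lower. Of 7 goblet markers listed, 5 were matched and tested, with 4 lower and a sum of 1353 to 1424 against 458.9 to 480.9. The median of the goblet list was -1.10 with 75th percentile scaling and -0.66 with quantile normalization, and the normalized table had 3 higher and 1 lower. Of 15 markers of proliferating cells tested, 7 were called higher and 5 lower, and their sum was 77.8 to 84.1 in control and 68.7 to 74.8 in S3d. Of 7 leukocyte markers tested, 6 were called lower and 1 higher, with a sum of 12.8 to 14.4 against 8.34 to 8.85. The tuft cell list, with 4 tested, had 3 higher and none lower, the enteroendocrine list 1 higher and 5 lower of 7, the smooth muscle list 2 and 4 of 8, the fibroblast list 3 and 3 of 9, the endothelial list 2 and 2 of 6, and the enteric neuron and glia list 3 and 0 of 6. Under normexp 1 marker was called in each of the proliferating, enteroendocrine, fibroblast and leukocyte lists and none in the others.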

How the data were processed

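Labelled jejunal RNA of 6 samples, 3 control and 3 S3d, was hybridised to 1-colour Agilent rat arrays. The authors deposited the intensity values of each array from Agilent Feature Extraction 10.7.3.1 (10.7 in the submitters' processing notes), of which the processed signal is background-subtracted but not normalized between arrays. A second file the authors deposited holds log2 values for all samples, and its columns share 1 distribution, as quantile normalization gives. The program for that step is not given in the sources used here. For the main values, the processed signal was divided by its 75th percentile on the array and put on a log2 scale. Control and outlier-flagged spots were removed, and the spots of each probe averaged. A probe was tested if it stood well above background on every array of either group, which held for 31424 of 41012. No spot was saturated, and between 69.1% and 81.5% of spots were well above background. Precision is limited by having 3 arrays a group.

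The test was limma's moderated linear model (version 3.58.1, R 4.3.3) on group alone, and p-values were adjusted over every tested probe by the Benjamini-Hochberg method. Tables and plots were made in Python with pandas. The fit was tested on simulated data before use. Probes were named through RefSeq accessions and the RefSeq table of GRCr8, which named 17512 probes. The members, all gene lists and the tests were chosen with earlier results of these data known. All probes of the members are named with their values, and of each pathway list the called gene with the largest change in each direction that was well above background on all arrays. That gene was taken from the 3 largest, and Btrc and Notum were added as bounds. Wnt9b and Sp5 are named only as genes tested through the S3d arrays alone. The values were also made by quantile normalization, with array medians, without scaling, by normexp (offset 50, on the median signal since no mean signal column was found) and from the normalized table. Further fits used stricter and looser filters, kept outlier spots, took an intensity trend or a block for the replicate number, averaged the probes of a gene, left out each array, or ran a one-way analysis of variance as the methods name it.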

Additional observations from a re-analysis of the deposited data

How the results depend on the processing

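Of the choices tried, normexp with its offset, the scaling and the source of the values changed most. Normexp reduced the probes called from 23230 to 1738 (538 higher and 1200 lower), the member probes called from 8 to 2, the member genes to 1 higher and 1 lower, and the pathway list genes from 70 to 6, and it moved the median of all probes to -0.69. No scaling gave 8 member genes higher and 0 lower, with 98.1% of calls on the array higher, against 53.4% with the 75th percentile, 44.2% with array medians and 31.0% with normexp. The normalized table, by its own labels, gave 6 member genes higher and 1 lower. Only 1 member gene was called higher under quantile normalization, median centring, the one-way analysis of variance and the replicate block, because Lgr5 was lost. Median centring called 10 member probes, and 6 member genes lower. A fold change of at least 1.5 left 3 member genes lower. The threshold the study names beside its array results, an unadjusted p under 0.01 with 1.5-fold, was applied with the one-way analysis of variance in place of limma. Test and threshold together gave 13975 probes, 5 member probes, 1 member gene higher and 3 lower, and 37 pathway list genes. Leaving out each array gave 21458 to 22836 probes, 7 to 9 member probes, 1 to 2 member genes higher, 5 lower throughout and 65 to 70 pathway list genes. Of 34 named results, 31 kept sign and call without each array, with Lgr5, Sfrp5 and the second Cd44 probe as exceptions. Arrays of the same number did not deviate together (correlations 0.02, 0.02 and -0.05), so the numbers do not pair the samples, and the replicate block gave 22233 probes, 7 member probes, 1 member gene higher and 5 lower, and 66 pathway list genes.

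The log2 changes whose sign turned were the following; beyond what each alternative does to the values, the cause was not tested. In the normalized table they were Lgr5 -0.62, Olfm4 -3.01, Ascl2 0.39, Smoc2 probe 1 0.23, Axin2 1.45, Myc 0.92, Ephb2 probe 1 0.16, Ephb2 probe 2 1.21, Cd44 probe 1 0.28, Cd44 probe 2 0.68, Wnt3 -0.36, Wnt11 2.58, Ryk -0.69, Lrp5 2.76, Gsk3a 1.95, Ctbp2 -0.47, Bcl9 1.66, Frzb -0.28, Sfrp5 0.76, Slc12a2 -1.77, Mmp7 1.15, Efnb1 -2.10, Epha2 1.26, Notch4 -0.35, Notch3 1.14, Grem1 -0.75, Id2 1.66, Mlx -0.71, Mxd1 2.87, Phc3 -1.18, Phc2 0.81, Btrc -0.91 and Notum -1.28. Without scaling they were Ascl2 1.36, Smoc2 probe 1 1.19, Smoc2 probe 2 1.69, Axin2 0.45, Myc 0.83, Ephb2 probe 1 1.76, Ephb2 probe 2 1.11, Cd44 probe 1 1.46, Cd44 probe 2 1.56, Bcl9 0.52, Sfrp5 1.32, Mmp7 0.51, Epha2 0.83, Notch3 0.34, Id2 0.087 and Phc2 0.98. Under normexp they were Lgr5 -0.79, Smoc2 probe 1 0.031, Smoc2 probe 2 0.28, Wnt3 -1.49, Frzb -0.19, Notch4 -0.17, Phc3 -0.65, Btrc -1.63 and Notum -1.60. Under quantile normalization the second Smoc2 probe was at 0.020. Lgr5, the second Cd44 probe and the second Ephb2 probe had processed signals of 15.2 to 36.4, 24.0 to 29.2 and 23.3 to 25.4 on the control arrays, and of the member probes they moved most with the background model.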
